A study of Mus musculus with 2 samples.

Results

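Hsd3b1, Hsd3b6 and Hsd3b7 are the 3 mouse genes of the 3-beta-hydroxysteroid dehydrogenase family that carried most of the family's long reads in adrenal gland. Their reads were taken as every row of both deposited quantification tables that names the gene, whatever the class of the transcript model, and the exon structures came from the matching annotation of each library. This gave 89 listed transcript models, 42 in replicate 1 and 47 in replicate 2, belonging to 3 of the 18177 annotated genes with reads. The material was adrenal gland tissue of 14-day-old male B6CASTF1/J mice, an F1 hybrid strain, with no treatment named in the labels. The series is 1 group of 2 libraries, called replicate 1 and replicate 2, so that the only comparison it allows is between the libraries. Both carry the same donor identifier and belong to a set of 3 males, and their biosamples are numbered separately, and whether separate animals were used cannot be read from the labels. The p-values below measure only counting error between these libraries, which may be technical replicates.

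The 3-beta-hydroxysteroid dehydrogenases oxidise the 3-beta-hydroxyl group of a steroid and shift its double bond. In the adrenal cortex this turns pregnenolone into progesterone, a step that every corticosteroid passes through after the cholesterol side chain has been cleaved. Hsd3b1 is the form known from adrenal gland and gonads of the mouse. Hsd3b6 has been described in the mouse in the aldosterone-producing zona glomerulosa, where its level follows the circadian clock, and in Leydig cells. Hsd3b7 acts on 7-alpha-hydroxylated sterols in bile acid synthesis rather than on pregnenolone, and is best known from liver.

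Replicate 1 held 964815 reads without ERCC spike-ins and replicate 2 held 985101, and every level in CPM was computed on these totals (reads of a gene in a library scaled to 1000000 reads). Where a gene had 0 reads, counting error allows up to 3 reads, which is 3.11 CPM for replicate 1 and 3.05 CPM for replicate 2. Cortical markers were abundant, with Cyp11a1 at 15606 and 18158 CPM and Cyp21a1 at 7735 and 6661 CPM, and the chromaffin markers Th, Chga, Chgb and Pnmt had from 633 to 3065 reads in a library. Among markers of neighbouring tissues the kidney genes Slc34a1 and Umod and the Leydig gene Insl3 had 0 reads in both libraries, while the kidney gene Aqp2 had 2 and 4 reads and the Leydig gene Hsd17b3 had 2 in each. All 8 hepatocyte markers (Alb, Ahsg, Apoa1, Apoa2, Ttr, Fgb, Fga and Serpina1a) were higher in replicate 2, with a summed level of 753.5 CPM in replicate 1 and 15655 CPM in replicate 2. None of the 8 was at 0 in either library. Because the tissue was measured in bulk, fewer cells of a type and less RNA per cell cannot be told apart.

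The sequences of the genes differ at enough places for full-length reads to be told apart. Hsd3b1 (ENSMUSG00000027871.16, chr3:98852194-98859794, minus strand, mm10) and Hsd3b6 (ENSMUSG00000027869.14, chr3:98805504-98814443, minus strand) lie near each other on chromosome 3. Their coding sequences are both 1119 bases long without the stop codon, 373 codons, and 1007 bases (90.0%) are identical. The longest identical stretch is 72 bases, far shorter than a spliced read. The first 60 coding bases of both genes are printed here because they hold the kind of differences that separate the paralogs, with the 7 differing bases in capitals (Hsd3b1-202 at chr3:98857905-98857964, Hsd3b6-201 at chr3:98810987-98811046, both minus strand, from GENCODE M21 transcripts).
Hsd3b1-202: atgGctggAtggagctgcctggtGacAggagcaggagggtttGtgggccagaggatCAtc
Hsd3b6-201: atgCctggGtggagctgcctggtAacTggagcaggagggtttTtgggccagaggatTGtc
Counted from the first coding base, with the base of Hsd3b1 first, the differences are G4C, A9G, G24A, A27T, G43T, C57T and A58G. The genes differ more in the exon before the first coding exon. That exon of Hsd3b1-202, 190 bases long, is 40.7% identical to the 262-base first exon of Hsd3b6-201. Of the 263 alignment columns, 74 are gaps, which count as differences. The second coding exons, both 165 bases long, are 92.1% identical, and the last exons, noncoding part included, 83.5%. Hsd3b7 (ENSMUSG00000042289.11, chr7:127800604-127803802, plus strand) is the distant member, with 1107 coding bases. Over all alignment columns, gaps included, it is 53.2% identical to Hsd3b1 and 52.4% to Hsd3b6, with no identical stretch longer than 9 bases. Closer to Hsd3b6 than Hsd3b1 are Hsd3b2 and Hsd3b3, at 94.4% and 94.5% identity with identical stretches of 141 and 144 bases, so a read that covers only a small part of Hsd3b6 is less certain in its assignment.

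Hsd3b1 carried nearly all reads of the 3 genes. It had 4621 reads in replicate 1 and 4672 in replicate 2, which is 4790 CPM (95% Poisson interval 4652 to 4930) and 4743 CPM (4608 to 4881), with a mean of 4766 ± 33.1 CPM (SD, n = 2). It ranked 8 among all annotated genes in both libraries. Its share of the reads of the 3 genes was 97.3% (Wilson 95% interval 96.8 to 97.7) in replicate 1 and 97.2% (96.7 to 97.6) in replicate 2. Hsd3b6 had 75 and 59 reads, 77.7 CPM (61.1 to 97.4) and 59.9 CPM (45.6 to 77.3), and ranked 2560 and 3016. Hsd3b7 had 54 and 77 reads, 56.0 CPM (42.0 to 73.0) and 78.2 CPM (61.7 to 97.7), and ranked 3408 and 2379. Per kilobase of the longest annotated coding transcript, Hsd3b1 stood at 2582 and 2557 CPM, Hsd3b6 at 43.1 and 33.2 CPM and Hsd3b7 at 30.6 and 42.8 CPM. On this scale Hsd3b1 was 59.9 and 76.9 times as high as Hsd3b6 and 84.3 and 59.8 times as high as Hsd3b7. Hsd3b6 and Hsd3b7 changed places between the libraries, the ratio of their levels per kilobase being 1.41 in replicate 1 and 0.777 in replicate 2, so their order does not hold beyond the spread.

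**Figure D1:**
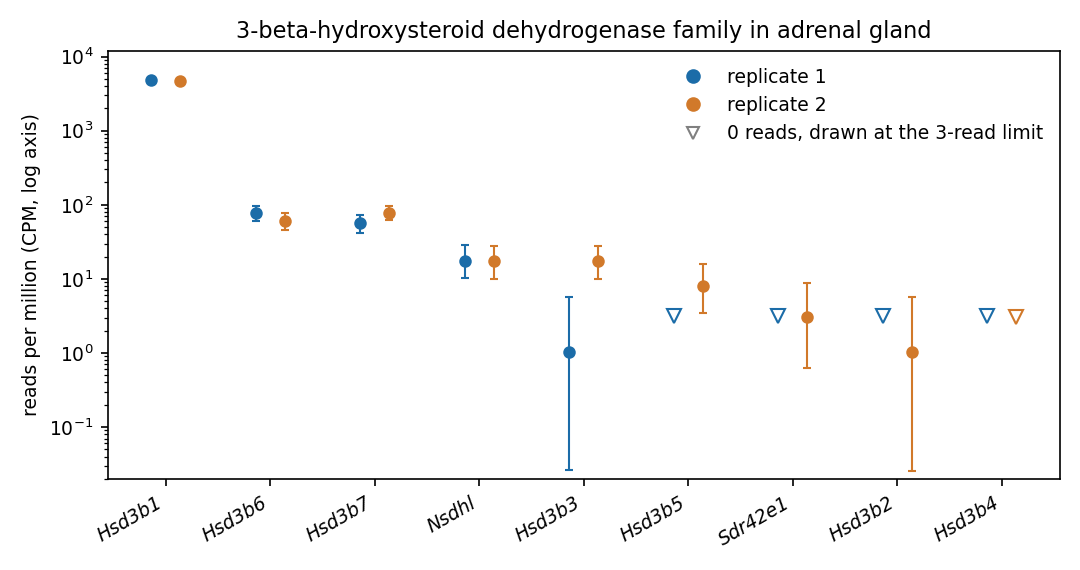
Levels of the 3-beta-hydroxysteroid dehydrogenase family in adrenal gland in replicate 1 and replicate 2, in CPM on a log axis. Points are single libraries, bars are 95% Poisson intervals that cover counting error only, and open triangles mark genes with 0 reads, drawn at the 3-read limit. Hsd3b1 stands alone at 4790 and 4743 CPM, while Hsd3b6 and Hsd3b7 share a range of 56.0 to 78.2 CPM.

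None of the 3 genes differed between the libraries past the threshold, an adjusted p of 0.05 in an exact binomial test. That test ran on 11094 genes, each with 10 or more reads in total, and called 9.17% of them. The ratio of replicate 1 to replicate 2 was 1.01 (95% Clopper-Pearson interval 0.969 to 1.05, adjusted p = 0.895, exact binomial test) for Hsd3b1. For Hsd3b6 it was 1.30 (0.911 to 1.86, adjusted p = 0.451, exact binomial test), and for Hsd3b7 0.716 (0.496 to 1.03, adjusted p = 0.297, exact binomial test). The intervals of Hsd3b6 and Hsd3b7 rest on 54 to 77 reads a library, and differences within them were not detectable at this depth. The result for Hsd3b1 depended on the scaling. The median log2 ratio of all tested genes was 0.16 and that of Hsd3b1 was 0.01, which is -0.14 relative to the median. With TMM scaling, which brings the median of all genes to -0.00, the ratio of Hsd3b1 was 0.905 (0.869 to 0.943, adjusted p = 5.11e-05, exact binomial test), and with DESeq2 size factors 0.933 (0.895 to 0.972, adjusted p = 0.0137, exact binomial test), both called as higher in replicate 2. When the reads of the hepatocyte markers were left out of the denominators, the ratio was 0.995 and not called.

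The first exons of Hsd3b1 set most of its reads apart from the annotation. The gene has 2 annotated transcripts, which share a 123-base first exon at chr3:98859672-98859794. Hsd3b1-202 then has a 190-base noncoding exon (chr3:98858152-98858341) and Hsd3b1-201 goes straight to the first coding exon (chr3:98857820-98858026). In these libraries the annotated first exon was found in 10 of 3916 multi-exon reads in replicate 1 (0.255%, Wilson 95% interval 0.139 to 0.469) and 11 of 3748 in replicate 2 (0.293%, 0.164 to 0.525). The most used chain of introns instead began in the 190-base exon and then followed Hsd3b1-202 to the last exon, in 4 exons. It held 3284 of 3916 reads in replicate 1 (83.9%, 82.7 to 85.0) and 3168 of 3748 in replicate 2 (84.5%, 83.3 to 85.6). The deposited models place its 5′ end at the first base of the 190-base exon, 1453 bases from the annotated start of the gene. Each model has a single pair of drawn ends, and the start of that exon equals the annotated exon start, so the position at which each read began is not shown by the files.

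The 3 junctions that decide between these structures are printed with 15 bases on each side, the bases after the junction in capitals, because the annotated transcripts begin with the first or the second and the most used chain holds only the third. They are joined from chr3:98858327-98859686, chr3:98858012-98859686 and chr3:98858012-98858166, minus strand.
Hsd3b1-202 exon 1 to exon 2: gcggctgctgcacagGAATAAAGGACATAA
Hsd3b1-201 exon 1 to exon 2: gcggctgctgcacagCCCTCCTAAGGGTTA
Hsd3b1-202 exon 2 to exon 3: ttaacaatttaacagCCCTCCTAAGGGTTA
The first junction was seen in 3 reads of replicate 1 and 0 of replicate 2, and the second in 7 and 10 reads. A single read of replicate 2 joined the annotated first exon straight to the second coding exon. The third, across a 125-base intron (chr3:98858027-98858151), was in 3314 reads of replicate 1 (84.6%, 83.5 to 85.7) and 3193 of replicate 2 (85.2%, 84.0 to 86.3). Full matches to the annotation numbered 7 and 10 reads for Hsd3b1-201 and 3 and 0 for Hsd3b1-202.

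A second chain was drawn with the 125-base intron joined to its neighbouring exons. The 3-exon chain, with 540 reads in replicate 1 (13.8%, 12.7 to 14.9) and 478 in replicate 2 (12.8%, 11.7 to 13.9), has the introns of the coding part but no splice upstream of the start codon. Its end exon is drawn from the 190-base exon through the 125-base intron into the first coding exon, 522 bases in all. No read kept this intron between other splices, so reads that retained it cannot be told apart from reads that began downstream of it. Of the remaining chains, the 2-exon one had 20 reads (0.511%) in replicate 1 and 32 (0.854%) in replicate 2. A chain that used an acceptor 31 bases inside the first coding exon, upstream of the start codon, had 25 (0.638%) and 21 reads (0.560%). In all, 39 chains were found, of which 12 occurred in both libraries and held 99.5% and 99.6% of multi-exon reads, and 21 rested on 1 read.

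**Figure D2:**
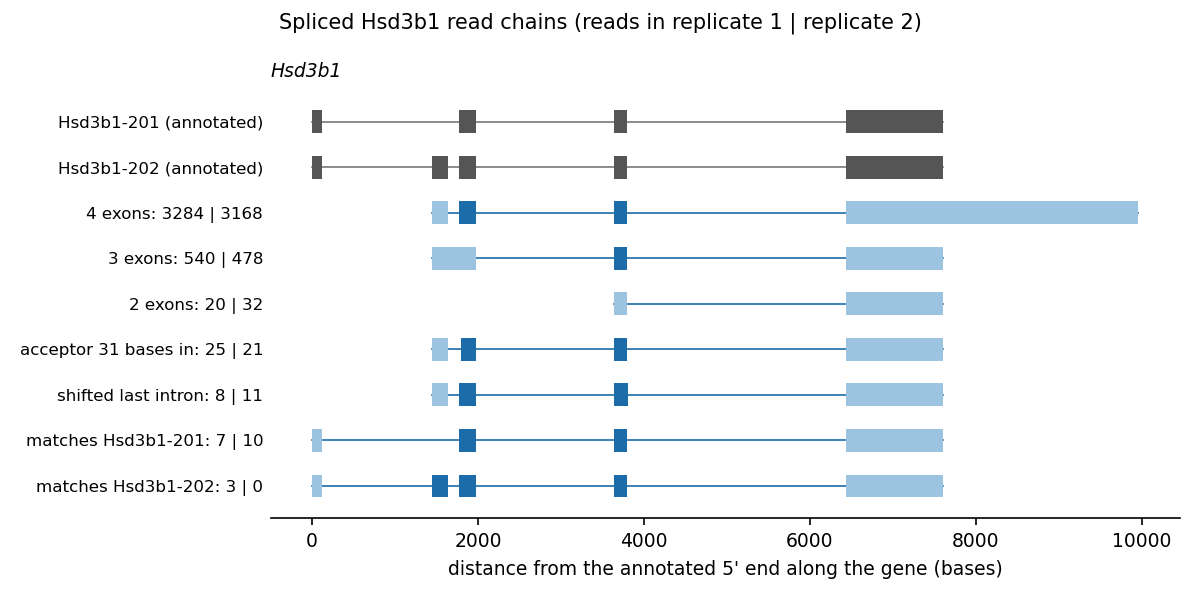
Intron chains of Hsd3b1, drawn to scale by distance in bases from the annotated 5′ end, with the annotated transcripts in grey and the read chains in blue, labelled with their reads in replicate 1 and replicate 2. Dark boxes are inner exons bounded by splice sites and pale boxes are end exons, whose outer limits are those drawn in the deposited annotation of replicate 1, or of replicate 2 where a chain has no reads in replicate 1. The 4-exon chain with 3284 and 3168 reads lacks the annotated first exon, which appears in chains at the bottom with 10 reads or fewer in a library.

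The coding part of Hsd3b1 was spliced as annotated in nearly every multi-exon read. All coding introns, and no other within the coding part, were present in 3859 reads of replicate 1 (98.5%, 98.1 to 98.9) and 3677 of replicate 2 (98.1%, 97.6 to 98.5). With an additional intron upstream of the start codon the counts were 3319 (84.8%) and 3199 (85.4%). The last coding intron (chr3:98853364-98855993) was spliced at its annotated sites in 99.3% of reads in both libraries. A shifted form of it, singled out after its values were seen, extended the exon before by 5 bases and left out the first 8 bases of the last exon, a net change of -3 bases that keeps the reading frame. Its junction had 11 reads in replicate 1 (0.281%, 0.157 to 0.502) and 16 in replicate 2 (0.427%, 0.263 to 0.692). The sequence of the 5 added bases was not available, so a stop codon made by them was not looked for. Whether the form is a true splice variant was not tested. The sequence around the annotated junction is shown with those 8 bases in capitals (joined from chr3:98853334-98856023, minus strand), and beside it the same place in Hsd3b6 (joined from chr3:98806642-98807794, minus strand), where no read had the shift.
Hsd3b1-202 exon 4 to exon 5: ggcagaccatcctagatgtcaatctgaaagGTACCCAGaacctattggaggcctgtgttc
Hsd3b6-201 exon 3 to exon 4: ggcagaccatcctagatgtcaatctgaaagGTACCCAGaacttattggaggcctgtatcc
The bases before the junction and the capitals are the same in both genes. The Hsd3b6 junction was covered by 75 and 53 reads, a number at which a form as rare as that of Hsd3b1 would not be detectable. The chain with most reads of the shifted junction, 8 in replicate 1 and 11 in replicate 2, was classed as new in catalog in replicate 1 and as new not in catalog in replicate 2, so the tables differed in the class of this rare chain. The other reads with that junction lay in rarer chains of several classes.

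Few reads of Hsd3b1 fell in models classed as known. Known models held 10 reads in each library, 0.216% (0.118 to 0.398) in replicate 1 and 0.214% (0.116 to 0.394) in replicate 2. Known reads had a median share of 86.7% over the 1894 genes that had 200 reads or more, and 14 genes, Hsd3b1 included, had a share as low. The most used multi-exon chain was classed as an incomplete splice match (a chain that covers only a stretch of an annotated one) in 45 (2.38%) of these genes. Full-splice reads (the sum of the known and of both new classes, in catalog and not in catalog) made up 1.43% in replicate 1 and 1.31% in replicate 2 (adjusted p = 1, Fisher's exact test over 6033 genes, of which 1.21% were called). Nearly all Hsd3b1 reads of the new classes also lacked the annotated first exon, so this share does not measure complete reads. The nearest class profiles, by summed difference over 5 classes and the mean of both libraries, belonged to the antithrombin gene Serpinc1 (14.4 points, on 12 and 435 reads), the erythroid spectrin gene Sptb (15.1 points) and the ATP synthase subunit gene Atp5f1 (17.4 points). That mean joins unlike profiles, since incomplete splice matches made up 98.6% of Hsd3b1 reads in replicate 1 and 78.9% in replicate 2.

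Single-exon reads of Hsd3b1 were more frequent in replicate 2. They numbered 705 of 4621 in replicate 1 (15.3%, 14.2 to 16.3) and 924 of 4672 in replicate 2 (19.8%, 18.7 to 20.9), a difference of -4.52 points (adjusted p = 5.88e-06, Fisher's exact test over 5404 genes, chosen after seeing the data). In that test 0.74% of genes were called, 0.685% of all as higher in replicate 2 and 0.0555% as higher in replicate 1. The median difference over the tested genes was -1.63 points, and 11.2% and 14.5% of all annotated reads were single-exon, so the library as a whole differed in the same direction. The 705 reads of replicate 1 form a model drawn over the whole 1170-base last exon and classed as an incomplete splice match. In replicate 2, 916 of the 924 reads form a model drawn over only 3 bases, chr3:98852194-98852196, between the annotated 3′ ends of the gene's transcripts, and classed as genomic. The true extent of those reads is not given by the files. With these classes, incomplete splice matches made up 98.6% of Hsd3b1 reads in replicate 1 and 78.9% in replicate 2, and genomic reads 0% and 19.8%.

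The drawn 3′ ends of Hsd3b1 also differed between the libraries. The most used chain was drawn to chr3:98849838 in replicate 1 and chr3:98850431 in replicate 2, which is 2356 and 1763 bases past the annotated end. Every other spliced chain ended within the annotated gene. Models that end within 100 bases of an annotated 3′ end held 28.9% of reads in replicate 1 and 32.0% in replicate 2, a share set by which chains were drawn there. Since a model's ends stand for all its reads, these values do not give the number of reads with an extended 3′ end.

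Around the annotated start of Hsd3b1 the reference sequence could be shown, although few reads held the annotated first exon. The 250 bases before the RefSeq start are printed for Hsd3b1 (chr3:98859795-98860044) and for Hsd3b6 (chr3:98814444-98814693), both on the minus strand and from RefSeq on GRCm38.p6, because few multi-exon reads of Hsd3b1 and most of Hsd3b6 contained the annotated first exon. Capitals mark the motif AGATAA, known from sites bound by GATA factors, which lies on the opposite strand in the promoter of Hsd3b1 and is therefore printed there as its reverse complement.
Hsd3b1 promoter: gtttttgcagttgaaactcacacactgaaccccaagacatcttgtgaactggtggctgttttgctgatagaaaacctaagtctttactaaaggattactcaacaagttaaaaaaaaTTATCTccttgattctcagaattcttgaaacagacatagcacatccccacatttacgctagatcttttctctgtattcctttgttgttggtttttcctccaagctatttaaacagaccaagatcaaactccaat
Hsd3b6 promoter: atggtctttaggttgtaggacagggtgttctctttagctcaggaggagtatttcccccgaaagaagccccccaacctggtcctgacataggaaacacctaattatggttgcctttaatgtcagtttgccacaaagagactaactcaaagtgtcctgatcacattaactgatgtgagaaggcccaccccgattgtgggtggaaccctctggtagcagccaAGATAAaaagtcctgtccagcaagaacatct
This GATA-type motif lies at -134 to -129 from the start in Hsd3b1 and at -31 to -26 in Hsd3b6, and 9.99% of 32851 mouse promoters hold it in the same window. The other motifs searched on both strands were AAGGTCA (4.08% of promoters), TATAAA (12.4%), TTACGTAA (0.113%), TTATGTAA (0.819%) and CACGTG (6.02%), and no other match was found in the 250 bases of Hsd3b1 or Hsd3b6. TTACGTAA, the palindromic site known for the clock output factors Dbp and Nfil3, occurs just after the annotated start of Hsd3b1, at 2 to 9 bases into the transcript, and 0.119% of promoters hold it when the first 50 transcribed bases are included. Hsd3b7 had none of the 6 motifs.

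Hsd3b6 was read almost entirely as annotated. Hsd3b6-201, with 4 exons of which the first is noncoding, held 73 of 75 multi-exon reads in replicate 1 (97.3%, 90.8 to 99.3) and 50 of 53 in replicate 2 (94.3%, 84.6 to 98.1). Its first exon is 262 bases long (chr3:98814182-98814443) and joins the first coding exon across an intron of 3073 bases, the junction shown here from chr3:98811094-98814196, minus strand, with the bases after it in capitals, to set against that of Hsd3b1.
Hsd3b6-201 exon 1 to exon 2: acaccttgtggctgaCCATCTCCAGGGTCA
This junction stood in 97.3% and 94.3% of the gene's multi-exon reads, whereas the equivalent annotated junctions of Hsd3b1 stood in 0.255% and 0.267% of its reads. Models drawn to start within 100 bases of an annotated start held 98.7% of Hsd3b6 reads in replicate 1 and 88.1% in replicate 2, against 0.216% and 0.235% of Hsd3b1 reads. Known models are drawn with the annotated ends, so these shares follow from the class of the chains. They do not show where reads began. The remaining chains of Hsd3b6 had 1 read in a library. Hsd3b6-202, which lacks the first exon, had 1 read in each library, and Hsd3b6-203 had 0 and 1. Unannotated first exons inside the first intron, at chr3:98812641-98812869 and chr3:98812694-98812884, had 1 read each, the first of these in replicate 1 and the other in replicate 2. Coding introns were as annotated in 75 of 75 and 52 of 53 reads.

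Single-exon reads of Hsd3b6 numbered 0 of 75 in replicate 1 and 6 of 59 in replicate 2, where the model is drawn over 2 bases at the annotated 3′ end. The Wilson 95% interval for 0 of 75 reaches 4.87%. Full-splice reads were 100% (95.1 to 100) and 89.8% (79.5 to 95.3), and that difference did not pass the threshold (adjusted p = 0.206, Fisher's exact test). The gene's class profile lay nearest to those of the ribosomal protein gene Rps27a (1.70 points), the mitochondrial import gene Timm13 (2.29 points) and the prefoldin gene Pfdn5 (2.33 points).

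Reads of Hsd3b7 were divided among several of its annotated transcripts. It has 13 annotated transcripts, and its reads formed 21 chains, of which 5 occurred in both libraries. Hsd3b7-201, the 7-exon transcript that codes for 369 codons, held 33 of 51 multi-exon reads in replicate 1 (64.7%, 51.0 to 76.4) and 49 of 77 in replicate 2 (63.6%, 52.5 to 73.5). Hsd3b7-206, a retained-intron transcript, held 5 (9.80%) and 4 reads (5.19%). Hsd3b7-210, another retained-intron transcript, had 0 and 4 reads. A chain that kept the last intron within its end exon, drawn to the annotated 3′ end, had 3 reads in each library, and a chain without the first splice had 0 and 4. The share of the top chain was lowest in this gene and highest in Hsd3b6, and for none of the 3 genes did it differ between the libraries (adjusted p = 1 each, Fisher's exact test over 5277 genes, of which 0.398% were called).

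The kept intron of Hsd3b7-206 is intron 4, 71 bases long (chr7:127801943-127802013, plus strand), the shortest of the gene. It is printed in capitals with 15 flanking exon bases, chr7:127801928-127802028, because keeping it changes the reading frame.
Hsd3b7 intron 4: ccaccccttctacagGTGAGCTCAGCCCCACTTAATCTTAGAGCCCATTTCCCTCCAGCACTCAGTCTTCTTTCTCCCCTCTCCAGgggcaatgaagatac
The intron begins with GT, ends with AG and has 53.5% G and C bases. Since 71 is not a multiple of 3, keeping it shifts the frame, and read in frame after the 431 coding bases before it the first stop codon starts at intron base 2, as codon 145. The intron was spliced in 42 of 51 reads of replicate 1 (82.4%, 69.7 to 90.4) and 63 of 77 of replicate 2 (81.8%, 71.8 to 88.8). It was kept between other splices in 8 (15.7%, 8.17 to 28.0) and 12 reads (15.6%, 9.15 to 25.3). The share of reads that kept it was thus nearly equal in the libraries. No intron of Hsd3b1 was kept between other splices in more than 2 reads of a library, and none of Hsd3b6 in any. For the 125-base intron of Hsd3b1 this count says little, since few reads had a splice upstream of it. That intron lay within the drawn end exon in 541 (13.8%) and 486 reads (13.0%), so the genes cannot be ranked by intron keeping.

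Other introns of Hsd3b7 were also kept, or spliced at other sites, in some reads. The last intron (chr7:127802399-127802785) was kept in the end exon in 7 (13.7%) and 9 reads (11.7%), and intron 5 was spliced in 51 of 51 and 74 of 77. The first intron was spliced at its main sites in 43 reads of replicate 1 (84.3%, 72.0 to 91.8) and 68 of replicate 2 (88.3%, 79.3 to 93.7). A later acceptor of that intron, ending at 127801126 and used by the annotated transcripts Hsd3b7-205 and Hsd3b7-207, leaves out the start codon of Hsd3b7-201 at chr7:127801081-127801083. It was used in 7 of 51 reads of replicate 1 (13.7%, 6.81 to 25.7) and 1 of 77 of replicate 2 (1.30%, 0.230 to 7.00). The intervals overlap narrowly, and the difference was not tested. A later donor of the second intron (chr7:127801364-127801460) had 4 reads in each library. All chains but 1, which had a single read in replicate 1, used annotated introns only.

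**Figure D3:**
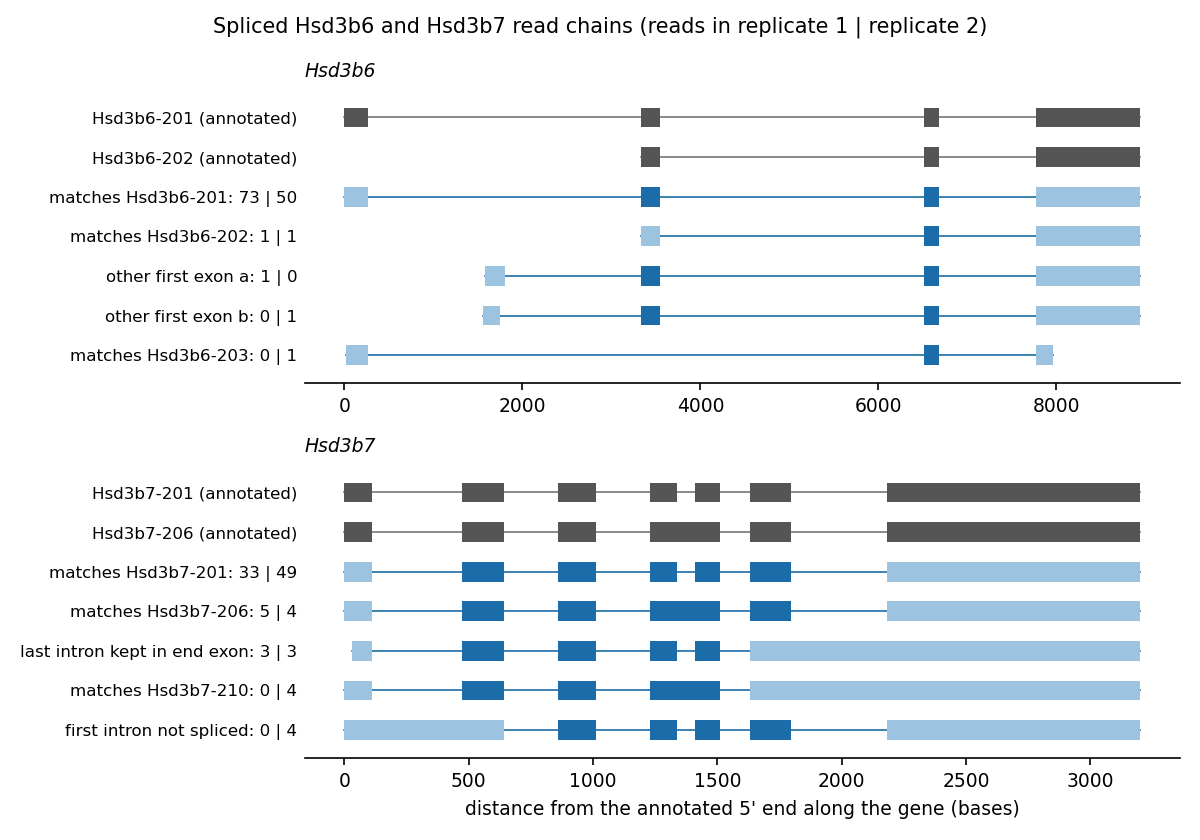
Intron chains of Hsd3b6 (top) and Hsd3b7 (bottom), drawn to scale by distance in bases from the annotated 5′ end, with 2 annotated transcripts of each gene in grey and the read chains in blue, labelled with their reads in replicate 1 and replicate 2. Dark boxes are inner exons and pale boxes are end exons with the limits drawn in the deposited annotation. Most Hsd3b6 reads match Hsd3b6-201, while Hsd3b7 reads divide between Hsd3b7-201 and chains that keep or shift an intron.

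Hsd3b7 had 3 single-exon reads of 54 in replicate 1 and 0 of 77 in replicate 2. Full-splice reads made up 87.0% (75.6 to 93.6) and 83.1% (73.2 to 89.9) without a difference past the threshold (adjusted p = 1, Fisher's exact test). Its nearest class profiles were those of the ferredoxin reductase gene Fdxr (6.26 points), which passes electrons to the mitochondrial steroid hydroxylases, H2-Ke6 (7.34 points) and Tmem234 (7.46 points). Counting for Hsd3b7 is less certain at its last exon, which overlaps the annotated gene Gm49388. A single-exon model of Gm49388 with the limits of that exon (chr7:127802786-127803802) had 0 and 5 reads, and adding them to Hsd3b7 left it without a call.

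**Figure D4:**
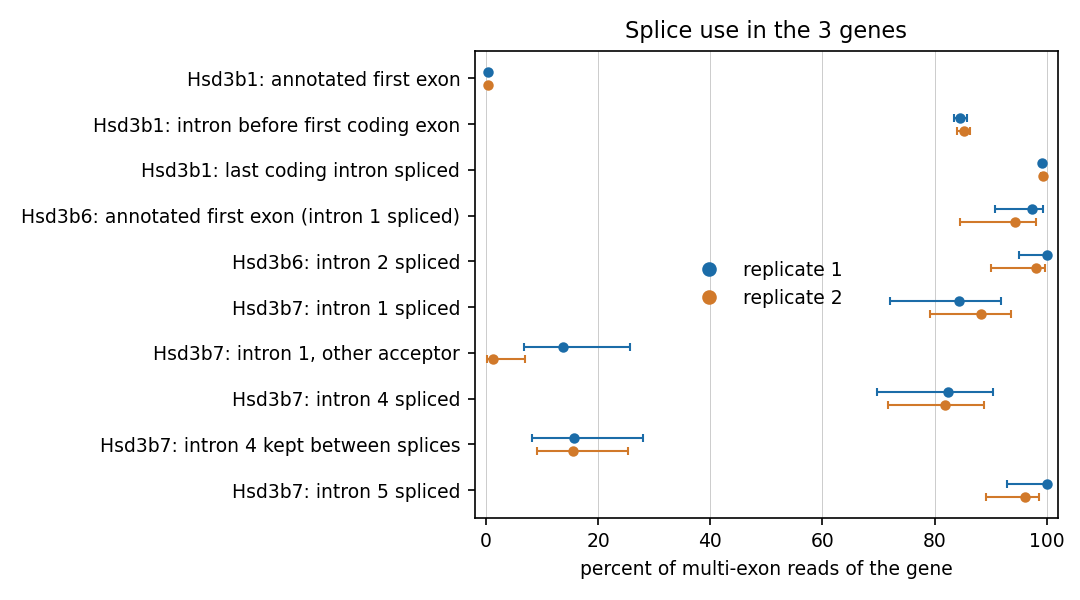
Use of selected introns and exons in Hsd3b1, Hsd3b6 and Hsd3b7, as percent of the gene's multi-exon reads in replicate 1 and replicate 2, with Wilson 95% intervals that cover counting error only. The annotated first exon appears in 0.255% and 0.293% of Hsd3b1 reads but its equivalent in 97.3% and 94.3% of Hsd3b6 reads, and intron 4 of Hsd3b7 was kept in 15.7% and 15.6%.

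The rest of the family was scarce in replicate 1. Hsd3b3, known from mouse liver and kidney, had 1 read in replicate 1 (1.04 CPM) and 17 in replicate 2 (17.3 CPM), so that the exact binomial test called it (ratio 0.0601, interval 0.00144 to 0.383, adjusted p = 0.00334), where 4.35% of all tested genes were called as higher in replicate 2. Hsd3b5, known from male mouse liver, had 0 and 8 reads and was at least 2.61-fold higher in replicate 2, set against 3 reads in replicate 1, without a test. Hsd3b2 had 0 and 1 reads and Hsd3b4 had 0 in both. The 8 hepatocyte markers were higher in the same library, and their part in these values was not tested. Among more distant relatives, Nsdhl, a sterol dehydrogenase of cholesterol synthesis, had 17 reads in each library and Sdr42e1 had 0 and 3. Of the 5 family genes tested, Hsd3b3 was the only gene called, with Hsd3b1 as a second under TMM scaling and DESeq2 size factors.

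The corticosteroid pathway around Hsd3b1 was split between the libraries. Of 21 genes tested, 11 were not called, and the 10 called genes were 5 that stood higher in replicate 1 and 5 in replicate 2 (4.81% and 4.35% of all tested genes), with a median log2 ratio of 0.09 beside 0.16 over all tested genes. The genes higher in replicate 1 included Cyp11b1, the 11-beta-hydroxylase, at 5847 and 4572 CPM (ratio 1.28, 1.23 to 1.33), and Akr1b7, an aldose reductase-like gene of the zona fasciculata, at 2966 and 1680 CPM (ratio 1.77, 1.66 to 1.88). Also higher there were Star, which brings cholesterol into mitochondria, at 5005 and 4687 CPM, and Cyp21a1, the 21-hydroxylase, at 7735 and 6661 CPM. Higher in replicate 2 were Cyp11a1, which cleaves the cholesterol side chain (15606 and 18158 CPM), Akr1c18, an X-zone 20-alpha-reductase (2084 and 4130 CPM), Cyb5a (321 and 459 CPM), Hsd11b1 (29.0 and 73.1 CPM) and the sulfotransferase gene Sult2a1 (3.11 and 190 CPM). The split depended on scaling, with 2 genes called toward replicate 1 and 7 toward replicate 2 under TMM, where Star (ratio 0.957, adjusted p = 0.233), Cyp21a1 (adjusted p = 0.156) and Cyp11b2 (adjusted p = 0.0884) lost their calls in the exact binomial test. Over all genes TMM called 205 as higher in replicate 1 against 673 in replicate 2, where the unscaled totals called 534 against 483. Hsd3b1, with a ratio of 1.01, lay between the genes that were higher in each library. The 8 hepatocyte markers were also higher in replicate 2, and their part in the split of this pathway was not tested.

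Among genes of the zona glomerulosa, where Hsd3b6 has been described, the called genes were higher in replicate 1. Of 11 tested, 2 were higher in replicate 1, where 4.81% of all tested genes were called in this direction, and none in replicate 2. The median log2 ratio of the list was 0.26, beside 0.16 over all tested genes. The called genes were Cyp11b2, the aldosterone synthase, at 322 and 229 CPM (ratio 1.41, 1.18 to 1.68, adjusted p = 0.00238 by the exact binomial test) and Dab2, an endocytic adaptor, at 316 and 215 CPM (ratio 1.47, 1.23 to 1.76, adjusted p = 4.54e-04, exact binomial test). Kcnk3, an acid-sensitive potassium channel, stood at 1655 and 1606 CPM, Wnt4 at 180 and 150 CPM. Hsd3b6 had a log2 ratio of 0.38 that was not called. Under TMM only Dab2 kept its call.

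Hsd3b6 and the cortical genes are also known to respond to the clock and to ACTH. Of 15 clock genes tested, Cry1, a repressor of the clock, was higher in replicate 1 (69.4 and 29.4 CPM). The clock output factors Dbp (26.9 and 61.9 CPM) and Nfil3 (63.2 and 110 CPM) were higher in replicate 2. The other 12 were not called, among them Bhlhe40 (71.5 and 85.3 CPM) and Tef (77.7 and 69.0 CPM). The median log2 ratio was 0.17, beside 0.16 over all tested genes. Of all tested genes, 4.81% were called in the direction of Cry1 and 4.35% in that of Dbp and Nfil3. Of 12 cortical regulators, none was higher in replicate 1 and 4 were higher in replicate 2, where the share of all tested genes was 4.35%. These were the ACTH- and cAMP-responsive factors Nr4a1 (254 and 370 CPM), Nr4a2 (15.5 and 47.7 CPM) and Crem (48.7 and 138 CPM), and the ACTH receptor accessory gene Mrap (496 and 605 CPM). Nr5a1, the cortical nuclear receptor, was at 430 and 440 CPM and Stat5b at 155 and 113 CPM, neither of them called. The time of day of dissection is not given in the labels, and its part in these values was not tested.

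Around Hsd3b7, genes of bile acid synthesis that differed were all higher in replicate 2. Of 14 tested, 6 were called in that direction and none in the other, against 4.35% and 4.81% of all tested genes. Their median log2 ratio was -0.40, beside 0.16 over all tested genes, and was unchanged when the genes with 0 reads were set to their bounds. Akr1c6 had 0 and 53 reads, Acox2, which oxidises the side chain, 0 and 25, and Cyp8b1, the sterol 12-alpha-hydroxylase, 0 and 15, at least 17.3-fold, 8.16-fold and 4.90-fold higher in replicate 2 against 3 reads. The acyl-CoA synthetase genes Slc27a5 (2.07 and 43.7 CPM) and Slc27a2 (43.5 and 120 CPM) and the sterol carrier gene Scp2 (434 and 693 CPM) were the others. Cyp7a1, the rate-limiting enzyme of the classic pathway, had 0 and 7 reads, and Baat, which conjugates bile acids, also 0 and 7. Akr1d1, the reductase that acts after Hsd3b7, stood at 272 and 290 CPM and was not called. Nor were Hsd17b4 (243 and 207 CPM), Abcd3 (151 and 137 CPM) and Cyp27a1 (22.8 and 34.5 CPM). Cyp7b1, which makes a substrate of Hsd3b7, had 9 and 4 reads. Hsd3b7 stood at 56.0 and 78.2 CPM, and the hepatocyte markers at 753.5 and 15655 CPM in sum. Their part in the levels of Hsd3b7 and of the bile acid genes in either library was not tested.

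**Figure D5:**
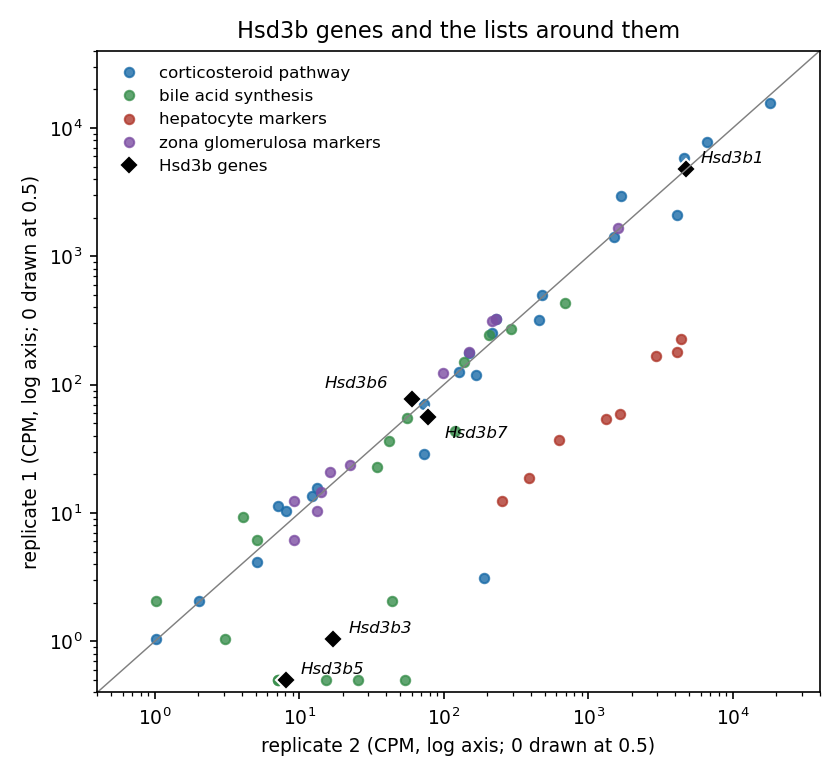
Levels of the Hsd3b genes (black diamonds) and of the gene lists around them, with replicate 1 on the vertical and replicate 2 on the horizontal axis, in CPM on log axes, genes with 0 reads being drawn at 0.5. The line marks equal levels. Hsd3b1, Hsd3b6 and Hsd3b7 lie near it, whereas hepatocyte markers, several bile acid genes, Hsd3b3 and Hsd3b5 lie on the side of replicate 2.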

How the data were processed

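Long-read RNA-seq counts of 2 libraries of adrenal gland were used. The deposited values are whole-number read counts per transcript model, not normalized, for models with at least 1 read, with replicates kept apart; they rest on mm10 and GENCODE M21, per the file headers and the text deposited beside the tables, and the annotation's source column names TALON. For the aligner, the TALON version and its filters, nothing is given in the sources used here. Synthetic spike-ins other than ERCC were not analysed here. All 18177 gene identifiers matched the GENCODE M21 annotation.

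Counts were summed per gene. ERCC reads (1.72% and 1.79%) were left out of the totals, and unannotated genes stayed in. Chains were matched between libraries by intron coordinates. Since 1 group of 2 libraries leaves no residual degrees of freedom for a replicate-based count model, genes with at least 10 reads went into an exact binomial test (two-sided), and shares in genes with at least 20 reads a library into Fisher's exact test (two-sided), each with Benjamini-Hochberg adjustment over all genes tested and a threshold of 0.05. Intervals are at 95% and, as reads carry no molecular identifiers in these counts, they and the 3-read limits cover counting error only. The tests were tested on simulated data. Alternatives included TMM scaling (edgeR 4.0.16) and size factors (DESeq2 1.42.0) in R 4.3.3. Python 3.11.15, scipy 1.17.1, numpy 2.4.6 and Biopython 1.88 (pairwise alignment) did the rest.

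The members and lists were chosen with earlier results of these data known. Named were the members and the family, and the 4 highest genes of each other list with its called genes. Also named were the chains with at least 5% of a member's multi-exon reads or the 4 largest, and the 3 nearest class profiles. Others were chosen after their values were seen, among them the shifted Hsd3b1 intron, the rare Hsd3b1 and Hsd3b7 splice forms, Cyp7a1, Baat, Cyp27a1 and Cyp7b1. Promoters are from RefSeq on GRCm38.p6, where all 3 members matched, and other sequences from GENCODE M21 transcripts.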

Additional observations from a re-analysis of the deposited data

Results flagged for a closer look

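Reads of other models at the loci of the members, which entered no level above, stood out at 2 places. At the Hsd3b1 locus, unannotated single-exon antisense models on the opposite strand had 1 read in replicate 1 and 4 reads in replicate 2. At the Hsd3b7 locus, the single-exon model of Gm49388 on the same strand had 0 reads in replicate 1 and 5 reads in replicate 2, above the 3 reads that a count of 0 allows. Neither difference was tested.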

How the results depend on the processing

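Of 123 values recomputed under alternatives, 109 kept their direction and their side of the threshold or stayed within the replicate spread, 6 reversed and 8 moved. Part of the 109 could not have changed, so that count does not measure robustness. With 2 libraries, a value that leaves out either library always lies within their SD. Values at other end distances were counted as unchanged without a check. The Hsd3b1 ratio of 1.01 turned below 1 with TMM scaling (0.905), DESeq2 size factors (0.933), without the hepatocyte list in the denominators (0.995) and with known models only (0.979, on 10 and 10 reads), and it was called under the first pair. With full-splice chains only, the difference in top-chain share was 3.45 points for Hsd3b1 and -6.35 points for Hsd3b7, against -0.66 and 1.07 points with all chains, and neither was called. Over all genes, full-splice calls numbered 28 with multi-exon models only and 73 with all, and top-chain calls 12 with full-splice chains only and 21 with all, where fewer genes were tested. Without models of 1 read, the mean share of intron 4 of Hsd3b7 spliced was 88.6% and not 82.1%, that of its first intron 90.5% and not 86.3%, that of the first intron of Hsd3b6 100% and not 95.8%, and that of the last coding intron of Hsd3b1 99.4% and not 99.3%. Junctions merged within 10 bases brought the shifted Hsd3b1 intron into the annotated one (99.7%). Leaving out each library gave 4743 to 4790 CPM for Hsd3b1, 59.9 to 77.7 CPM for Hsd3b6 and 56.0 to 78.2 CPM for Hsd3b7. No paired analysis was possible because there is 1 group, with no second condition to pair. Depth limits Hsd3b6 and Hsd3b7, with 54 to 77 reads a library.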

Other observations

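In replicate 1, 3 reads joined Hsd3b1 to the neighbouring gene Hao2, a hydroxyacid oxidase gene. A 10-exon model with 2 reads and a 6-exon model with 1 read, both assigned to Hao2 in the deposited annotation, ended at the 3′ end of Hsd3b1. Replicate 2 had 0 such reads. Hsd3b6 had 0 and 1 antisense reads, and the single-exon gene 9430064I24Rik, on the strand opposite to Hsd3b7, had 3 and 2.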
